A study of Rattus norvegicus with 10 samples.

Results

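Expression of 10 genes of bone morphogenetic protein (BMP) signalling was followed in aorta, labelled abdominal, of 2 inbred rat strains, Brown Norway (BN) and LOU. They were chosen by gene symbol: the ligand genes Bmp2, Bmp4, Bmp6 and Bmp7, the receptor genes Bmpr1a and Bmpr2, the signal transducer gene Smad1, and the target genes Id1, Id2 and Id3. Every probe set annotated to 1 of these symbols was used, which gave 14 probe sets of 15866 tested, for 10 of 10411 named genes. Total RNA of untreated rats was hybridised to Affymetrix arrays that read transcripts near their 3′ ends, with 5 arrays for each strain. The labels name the abdominal aorta as the source, while the extraction note speaks of thoracic and abdominal aorta. They put every rat at an age of 5 weeks, while the husbandry note allowed up to 18 weeks, and gave no sex. The labels did not state that each array came from a rat of its own, so p-values measure only the spread between these arrays.

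BMPs are secreted as dimers and bind pairs of type I and type II serine/threonine kinase receptors, which phosphorylate Smad1, Smad5 and Smad9. These enter the nucleus with Smad4 and switch on target genes, of which the Id genes are the best known. Id proteins lack a DNA-binding domain and hold E proteins and other basic helix-loop-helix factors away from DNA. In arteries the pathway acts on endothelium and smooth muscle, and loss of Bmpr2 function underlies heritable pulmonary arterial hypertension.

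Smooth muscle and endothelial markers were present on all arrays, with 7 of 7 and 8 of 8 measured markers above background, the level of bacterial control probes. Median signal ran from 97.4 to 105 over the arrays, and the 3′ to 5′ signal ratio of the beta-actin controls from 3.47 to 5.39. BN array 3 had the highest of these ratios, followed by LOU array 4 with 4.59. The same ratio of the GAPDH controls ran from 1.38 to 2.01, with 1.49 on BN array 3. LOU array 1 stood apart in lymphocyte markers, with a mean of 1.92 (log2, each gene centred over the arrays) against −0.57 to 0.09 on the other LOU arrays, and in macrophage markers, with 1.13 against −0.26 to 0.11. Of the 6 measured markers in each list, 1 lymphocyte marker and all 6 macrophage markers were above background on every array. BN array 3 was the lowest of the 10 in endothelial markers (−0.57) and the highest in Schwann cell markers (1.01). Other arrays lay at the extremes of other lists, as BN array 2 (2.19) and LOU array 4 (−2.08) did in brown adipocyte markers. Results are also given without BN array 3 and LOU array 1, a pair chosen after seeing the data.

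Bmp4 and Bmp6 were lower in BN, and no other member passed limma's test. Of the 14 probe sets, 2 were called (adjusted p under 0.05), both lower in BN, where 0.788% of all probe sets tested were called, 0.542% lower and 0.246% higher. The strains did not overlap in 3 of 14, all lower in BN, against 4.18% of all probe sets, 2.77% lower and 1.41% higher. Of these 3, 2 read the same gene, Bmp6. By brightest probe set, 1 of the 10 member genes was called and 2 did not overlap, all lower in BN. Over all 10411 genes, 50 were called lower and 25 higher, and 274 did not overlap lower and 182 higher. The members were chosen with earlier results of these data known. The members' median difference was −0.20 (log2, BN minus LOU), and that of all probe sets −0.03.

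**Figure D1:**
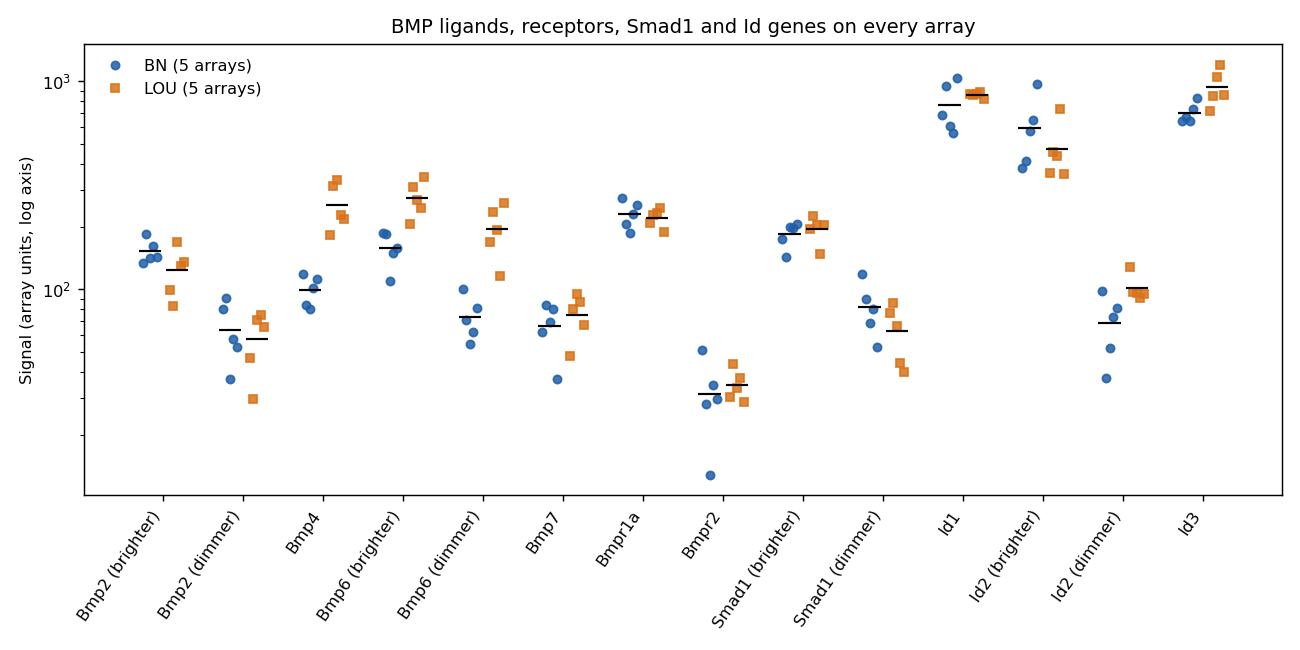
Signal of each member probe set on every array, on a log axis in array units. Blue circles are the 5 BN arrays and orange squares the 5 LOU arrays, from array 1 on the left to array 5 on the right, and black bars are strain means. The strains separate for Bmp4 and for both Bmp6 probe sets, and overlap for the other 11 probe sets.

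Bmp4, a ligand that shapes vessels and mesenchyme, had signals of 118.3, 84.4, 80.7, 101.5 and 112.1 on BN arrays 1 to 5. On LOU arrays 1 to 5 they were 182.3, 312.5, 335.5, 226.9 and 217.9. Every LOU array was above every BN array, and the lowest LOU value belonged to array 1, the one high in lymphocyte and macrophage markers. The means were 99.4 ± 16.6 (SD, n = 5) in BN and 255 ± 65.6 in LOU, a 2.53-fold difference (probe set 1387232_at, log2 −1.34, 95% interval −1.78 to −0.90, limma adjusted p = 0.0142). In bulk tissue, fewer cells of a type and less RNA per cell cannot be told apart. The call held without any 1 array (adjusted p from 0.0128 to 0.0467 over the 10 fits), and without BN array 3 and LOU array 1 together (log2 −1.38, adjusted p = 0.0308).

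Adventitial fibroblast markers were also lower in BN. Of 9 measured markers, all above background on every array, 7 had lower means in BN, and none passed the test. The marker mean lay between −0.44 and −0.01 (log2) in BN and between −0.14 and 0.58 in LOU. With strain means removed, Bmp4 followed this mean over the 10 arrays (Pearson r = 0.88, exact permutation p = 0.00632, Spearman correlation = 0.87, p = 0.00639, adjusted over 50 relations 0.0632 and 0.160). Without the 2 arrays farthest from the median of the marker mean, r was 0.93. With the marker mean as a covariate the Bmp4 difference was −0.91 (adjusted p = 0.140), in a fit that called 4 of 15866 probe sets. With the brown adipocyte mean in its place it was −1.26 (adjusted p = 0.0527). Both covariates were added after seeing the data. The strains overlapped in the fibroblast mean but not in that of Schwann cell markers. The latter lay between −0.06 and 1.01 in BN and between −0.68 and −0.24 in LOU. Of the Schwann cell markers, 6 of 6 measured had higher means in BN and 1 passed the test. With strain means removed, Bmp4 had r = −0.62 with their mean (exact permutation p = 0.0399, Spearman correlation = −0.68, p = 0.0267, adjusted 0.258 and 0.275 over the 50 relations), and −0.48 without BN arrays 1 and 3.

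Bmp6, the ligand that endothelium of the liver uses to control iron and that other endothelia also make, was read by 2 probe sets. The dimmer one (1388201_at) gave 99.7, 71.3, 54.4, 62.0 and 80.9 on BN arrays 1 to 5. The LOU arrays gave 168.1, 235.6, 193.1, 116.2 and 260.5. No LOU array was as low as any BN array, though LOU array 4 came near BN array 1. The means were 73.7 ± 17.6 (n = 5) and 195 ± 56.7, 2.6-fold higher in LOU (log2 −1.38, 95% interval −1.92 to −0.84, limma adjusted p = 0.034). This call was lost in 8 of the 10 fits without 1 array, with adjusted p-values up to 0.0985. Those 8 fits left out BN arrays 2 to 5 or LOU arrays 1, 2, 3 or 5. Over all 10 fits the difference ran from −1.55 to −1.26. Without BN array 3 and LOU array 1 together it was −1.32 (adjusted p = 0.115), and with the fibroblast mean as a covariate −1.16 (adjusted p = 0.404).

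The brighter Bmp6 probe set (1388920_at) differed the same way and did not pass. Its signals were 186.6, 184.2, 110.1, 150.1 and 157.8 on BN arrays 1 to 5 and 207.0, 308.5, 268.8, 245.4 and 347.8 on LOU arrays. All LOU values lay above all BN values here too. The means were 158 ± 31.1 and 276 ± 54.7 (n = 5, log2 −0.81, 95% interval −1.23 to −0.38, limma adjusted p = 0.102). It passed with the dimmest 40% of probe sets left out (adjusted p = 0.0359) and with a variance trend (0.0461). The mean of both Bmp6 probe sets also passed (log2 −1.09, limma adjusted p = 0.0466). Endothelial markers did not separate the strains (BN −0.57 to 0.35, LOU −0.26 to 0.49). Over the arrays the brighter probe set had r = 0.71 with their mean (Spearman correlation = 0.75, exact permutation p = 0.0413 and 0.0239, adjusted 0.258 and 0.275 over 50 relations), and r = 0.39 without BN array 3 and LOU array 2, the 2 farthest from the median.

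Bmp2, a ligand known for calcification of the vessel wall, had overlapping strains in both probe sets. Signals of the brighter one (1398270_at) ran from 134.4 over a median of 142.4 to 185.3 in BN and from 83.2 over 128.8 to 169.5 in LOU. Its difference was 0.34 (log2, 95% interval −0.09 to 0.78, limma adjusted p = 0.495), and that of the dimmer one (1368945_at) 0.15 (−0.55 to 0.85, adjusted p = 0.870). Bmp7, a ligand that acts in kidney development and can oppose fibrosis, gave means of 66.5 ± 18.5 in BN and 75.3 ± 18.6 in LOU (n = 5, log2 −0.19, interval −0.77 to 0.38, adjusted p = 0.790).

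The receptors and Smad1 showed no strain difference that the test could call. Bmpr1a, a type I receptor, gave 230.2 ± 35.4 in BN and 221 ± 22.4 in LOU (n = 5, log2 0.05, interval −0.26 to 0.36, limma adjusted p = 0.899). Bmpr2, the type II receptor, was above background on only 3 BN and 4 LOU arrays. Its signals ran from 12.8 to 51.0 in BN and from 28.7 to 43.7 in LOU (log2 −0.27, interval −0.97 to 0.44, adjusted p = 0.761), and the sign turned with signals below 32 set to 32 and without BN array 3. Smad1 is the transcription factor that receptors activate. Its brighter probe set (1389373_at) differed by −0.08 (interval −0.42 to 0.26, adjusted p = 0.852) and the dimmer one (1369174_at) by 0.40 (−0.22 to 1.01, adjusted p = 0.584).

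Of the 4 Id probe sets, 0 passed limma's test and 2 had an unadjusted p under 0.05, as did 2103 of all 15866 probe sets. Id3 had signals of 645.3, 673.0, 645.5, 734.0 and 832.9 on BN arrays 1 to 5 and of 718.1, 848.5, 1051.1, 1204.0 and 858.3 on LOU arrays. Only LOU array 1 lay within the BN range. The means were 706 ± 79.6 and 936 ± 191 (n = 5, probe set 1387769_a_at, log2 −0.39, interval −0.74 to −0.04, adjusted p = 0.326). Id1 gave 689.4, 948.4, 607.7, 563.0 and 1038.7 on BN arrays and 870.0, 859.5, 871.5, 888.9 and 818.4 on LOU arrays. The LOU arrays lay close together inside the wide BN range, with means of 769 ± 212 in BN and 862 ± 26.4 in LOU (n = 5, log2 −0.21, interval −0.61 to 0.20, adjusted p = 0.665).

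The 2 Id2 probe sets differed in sign. The brighter one (1375532_at) gave 381.1, 414.7, 578.2, 653.2 and 968.4 on BN arrays 1 to 5 and 362.3, 456.5, 439.1, 736.3 and 356.8 on LOU arrays. BN array 5 and LOU array 4 were the highest of their strains, and the strains overlapped (log2 0.32, interval −0.32 to 0.96, limma adjusted p = 0.672). The dimmer one (1368870_at) gave 98.4, 37.4, 52.4, 73.2 and 81.0 in BN and 128.4, 97.4, 95.8, 90.8 and 94.7 in LOU. There only BN array 1 reached the LOU range (log2 −0.63, interval −1.19 to −0.08, adjusted p = 0.309), and BN array 2 was not above background.

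The Id genes were then set against the ligands over arrays. Since Bmp4 and Bmp6 separated the strains, no correlation over pooled strains was computed. Each gene was read from its brightest probe set and its strain mean was removed, and the 6 relations were tested by all 14400 rearrangements within strains. With Bmp4, r was 0.08 for Id1 (exact permutation p = 0.759), 0.16 for Id2 (p = 0.652) and 0.40 for Id3 (p = 0.345). The Spearman correlations were 0.07, 0.10 and 0.36, with exact permutation p-values of 0.843, 0.780 and 0.367. With Bmp6, r was 0.29 for Id1 (exact permutation p = 0.543), −0.31 for Id2 (p = 0.408) and 0.07 for Id3 (p = 0.862). The Spearman correlations were 0.10, −0.56 and −0.02, with exact permutation p-values of 0.804, 0.117 and 0.974. Adjusted over the 6 relations, every Pearson p was 0.862, and the Spearman p was 0.705 for Id2 with Bmp6 and 0.974 for the other relations. No relation was thus detectable with 10 arrays, which does not show that there is none.

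**Figure D2:**
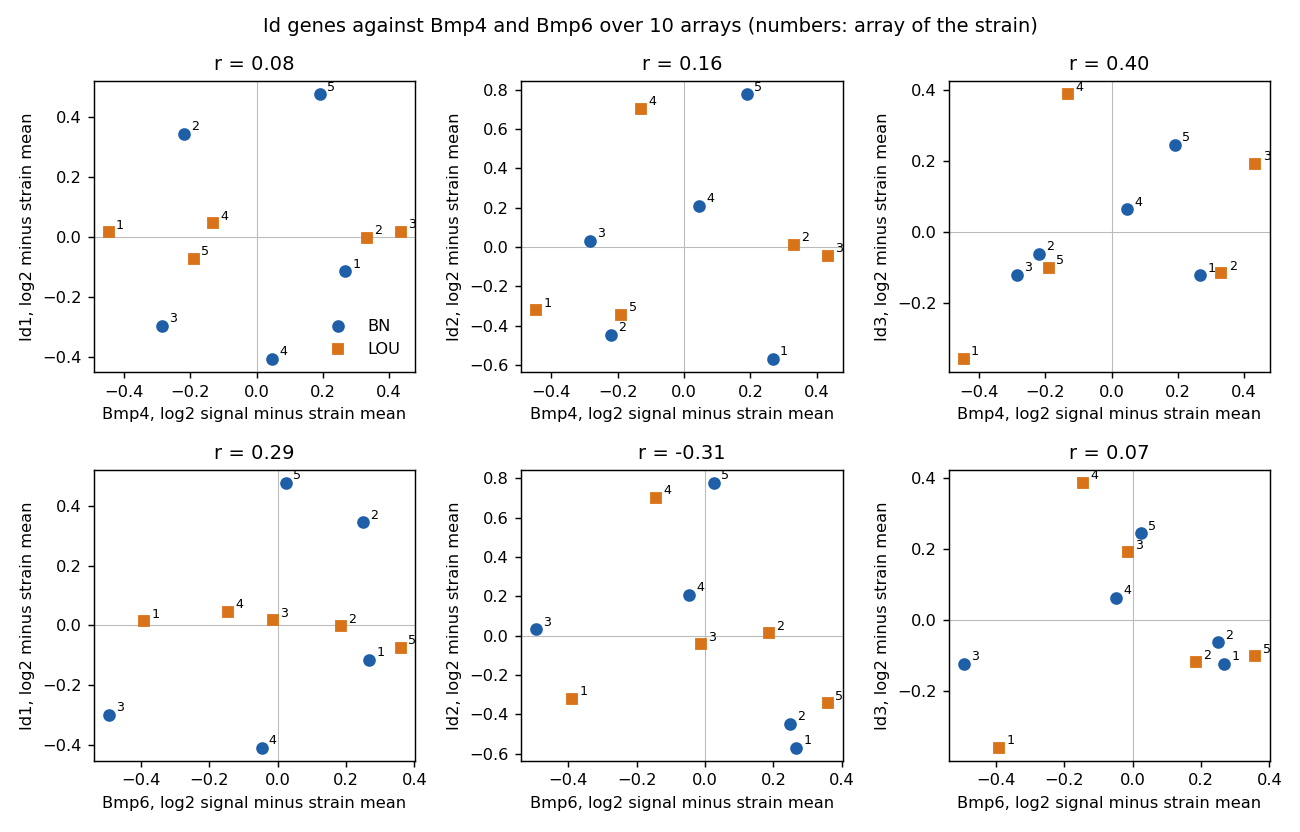
Log2 signal of Id1, Id2 and Id3 against Bmp4 (top row) and Bmp6 (bottom row), each as the difference from its strain mean, for 5 BN arrays (blue circles) and 5 LOU arrays (orange squares) numbered within strain. Pearson r stands above each panel and runs from −0.31 to 0.40, and in the Bmp6 panels BN array 3 and LOU array 1 lie at the far left.

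These values depended on single arrays. Over the 10 fits without 1 array, r of Id3 with Bmp4 ran from 0.10 (without LOU array 1) to 0.69 (without LOU array 4), with exact permutation p-values adjusted over the 6 relations of 0.450 to 0.981. Without LOU arrays 1 and 3, the 2 farthest from the median of Bmp4, r with Bmp4 was 0.11, 0.08 and −0.02 for Id1, Id2 and Id3. Without BN array 3 and LOU array 1, the 2 farthest in Bmp6, r with Bmp6 was 0.05 for Id1, −0.81 for Id2 and −0.89 for Id3. The exact permutation p-values of the last 2 were 0.0312 and 0.026 over 8 arrays, both 0.0938 adjusted over the 6 relations. On those 8 arrays, higher Bmp6 went with lower Id2 and Id3, the opposite of an Id gene following its ligand, and the test was not passed.

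Id2 and Id3 were also set against each other. Their r was 0.78 with strain means removed (exact permutation p = 0.00535, adjusted 0.0214 over 4 relations added after seeing the data), and the Spearman correlation was 0.62 (p = 0.0663, adjusted 0.246). Without BN array 5 and LOU array 4, the 2 farthest from the median of Id2, r was lower, at 0.44, and was not tested. Over the 10 fits without 1 array, r ran from 0.66 to 0.84. Id2 was read from its brighter probe set here. The dimmer one, whose strain difference had the opposite sign, was not tested for this relation. Id1 had r = 0.22 with Id2 and 0.28 with Id3 (exact permutation p = 0.623 and 0.293), with Spearman correlations of 0.16 and 0.52 (p = 0.694 and 0.123). Whether these differ from the relation of Id2 with Id3 was not tested. Bmp4 had r = 0.45 with Bmp6 (exact permutation p = 0.213). BN array 5 and LOU array 4 were also the lowest of their strains in brown adipocyte markers.

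Id2, read from its brighter probe set, and Id3 had negative correlations with brown adipocyte and with general adipocyte markers. The dimmer Id2 probe set was not tested against these markers. For Id2, r with the brown adipocyte mean was −0.90 (exact permutation p = 0.00222, Spearman correlation = −0.89, p = 0.00382, adjusted 0.0632 and 0.160 over 50 relations), and −0.75 without BN array 5 and LOU array 4. For Id3 it was −0.81 (exact permutation p = 0.00576, Spearman correlation = −0.70, p = 0.0361, adjusted 0.0632 and 0.275), and −0.64 without them. Of 6 listed brown adipocyte markers 5 were measured, 2 of them above background on every array, and all 5 had higher means in BN without passing. Their mean lay between −1.55 and 2.19 (log2) in BN and between −2.08 and 0.45 in LOU. With it as a covariate, the Id3 difference was −0.22 (limma adjusted p = 0.541) and that of the brighter Id2 probe set 0.71 (0.134). With the mean of 6 measured general adipocyte markers, r was −0.77 for Id2 (exact permutation p = 0.0138, Spearman correlation = −0.67, p = 0.044, adjusted 0.115 and 0.275). It was −0.43 with BN array 5 and LOU array 4 left out. For Id3 it was −0.83 (exact permutation p = 0.00521, Spearman correlation = −0.73, p = 0.0324, adjusted 0.0632 and 0.275) and −0.73 without them. That mean lay between −1.10 and 0.63 in BN and between −0.68 and 0.83 in LOU, with 3 of the 6 markers higher in BN, 3 lower and none passing, and 5 of the 6 above background on every array and 1 on none. Id3 also had r = 0.85 with the smooth muscle mean (exact permutation p = 0.00556, Spearman correlation = 0.71, p = 0.044, adjusted 0.0632 and 0.275), and 0.67 without LOU arrays 1 and 4. All list means and genes come from the same arrays and share their scaling. None of these marker relations passed after adjustment.

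**Figure D3:**
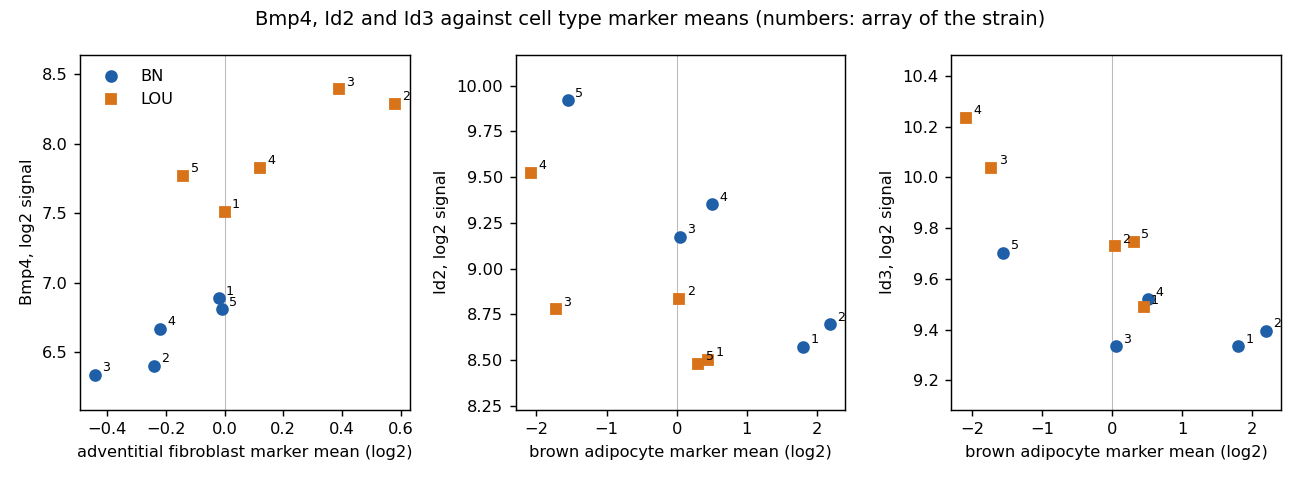
Log2 signal of Bmp4 against the mean of adventitial fibroblast markers, and of Id2 and Id3 against the mean of brown adipocyte markers, for 5 BN arrays (blue circles) and 5 LOU arrays (orange squares) numbered within strain. Bmp4 is higher where its markers are higher, with every LOU array above every BN array. Within each strain, Id2 and Id3 are highest on the array with the lowest brown adipocyte mean. Over both strains, the lowest Id2 signal is on a LOU array, while the highest brown adipocyte mean is on a BN array.

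The genes most like Bmp4 over the 10 arrays, strain means removed, were Pcsk5 (r = 0.942), C1r (0.931), Ltbp4 (0.926), Anpep (0.919) and Ppic (0.918), out of 7379 genes above background on every array. Each gene was ranked by its probe set with the highest r, which for Pcsk5 was not its brightest. Pcsk5 encodes a proprotein convertase, C1r a complement protease, Ltbp4 a matrix protein that binds latent TGF-beta, Anpep aminopeptidase N and Ppic cyclophilin C. In that order Id3 came 1587th, Id2 3288th and Id1 3801st. Strain differences of the 5 genes ran from −0.55 for C1r to −0.03 for Anpep (log2), and none passed limma's test (adjusted p from 0.254 to 0.958). For Id3 the likest were Haus8 (0.978), Trir (0.963), Bptf (0.960), Stx5 (0.954) and Phc2 (0.949), with Id2 at place 432. For Id1 they were Tbl3 (0.897), Cd151 (0.891), F2rl1 (0.882), Alkbh3 (0.878) and Ptger1 (0.876).

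Stretches before the start sites of Bmp4, the ligand that differed, and of the 3 Id genes are shown for what their promoters share. They are the 200 bases before the start site from RefSeq (build GRCr8, a BN genome), 5′ to 3′ along the gene. Of the 10 members, 8 were in the promoter table. Capitals mark 3 motifs found on either strand: GGCGNC, a GC-rich element that BMP Smads bind, whose form GGCGCC was also counted, the CCAAT box, and TATAAA.
Bmp4, chr15:22101934-22102133, minus strand: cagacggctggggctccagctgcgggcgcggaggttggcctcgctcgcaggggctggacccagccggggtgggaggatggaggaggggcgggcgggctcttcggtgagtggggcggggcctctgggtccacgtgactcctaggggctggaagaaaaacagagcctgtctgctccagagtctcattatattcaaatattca
Id1, chr3:161671364-161671563, plus strand: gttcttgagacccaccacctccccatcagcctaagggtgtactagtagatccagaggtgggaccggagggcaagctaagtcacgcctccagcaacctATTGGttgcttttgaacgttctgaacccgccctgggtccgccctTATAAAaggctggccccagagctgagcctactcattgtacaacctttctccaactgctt
Id2, chr6:47470996-47471195, minus strand: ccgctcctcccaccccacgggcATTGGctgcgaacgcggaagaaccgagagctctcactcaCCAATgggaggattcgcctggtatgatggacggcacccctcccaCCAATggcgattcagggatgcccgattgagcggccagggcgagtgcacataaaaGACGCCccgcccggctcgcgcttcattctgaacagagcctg
Id3, chr5:153656091-153656290, plus strand: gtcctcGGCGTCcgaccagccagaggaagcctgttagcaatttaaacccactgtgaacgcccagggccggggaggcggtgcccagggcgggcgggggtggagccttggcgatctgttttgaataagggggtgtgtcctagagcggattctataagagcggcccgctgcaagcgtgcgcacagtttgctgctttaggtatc
GGCGNC stood in Id2 (first base 41 before the start site) and Id3 (194 before) and not in Id1 or Bmp4, and 26.3% of all 33469 promoters of this length hold it. GGCGCC, held by 7.61%, was in none of the 4. Id2 had 3 CCAAT boxes and Id1 had 1, where 29.2% of promoters hold any, and TATAAA stood 59 bases before the start site of Id1 (10.4% of promoters). A match is a description of letters and no evidence of binding. Bases farther upstream were not searched, so a missing motif is missing from these 200 bases only.

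Among the other genes of the pathway, 40 of 62 listed were measured, 31 of them above background on every array and 3 on none. Of the 40, 0 passed limma's test and 6 had an unadjusted p under 0.05, as did 1374 of all 10411 genes. Their median difference was −0.16 (log2) against −0.02 over all 10411 genes, with 26 of 40 lower in BN against 5452 of all 10411. By brightest probe set the strains did not overlap in 1 of the 40 higher in BN and 2 lower. Over all 10411 genes this held for 182 and 274.

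Gdf10, a ligand of the same superfamily also called BMP3B, gave 105.2, 56.0, 47.9, 68.9 and 88.4 on BN arrays 1 to 5 and 173.9, 222.5, 149.0, 120.7 and 142.1 on LOU arrays. The strains did not overlap, and the difference of −1.17 (log2, interval −1.71 to −0.63) did not pass (adjusted p = 0.0657). Bmp3, a ligand that opposes other BMPs, was the 1 gene with every BN array higher, at 84.4 ± 10.9 against 65.0 ± 7.56 (n = 5, log2 0.38, adjusted p = 0.258). Bmp15, an egg ligand, was above background on no array.

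Of 5 measured inhibitors inside the cell or its membrane, all 5 had lower means in BN, where 5452 of all 10411 genes were lower. Smurf1 among them was level between the strains (log2 −0.0, limma unadjusted p = 0.999). The 5 had a median of −0.44 and 0 passed (2 had an unadjusted p under 0.05, a share to be read against 1374 of all 10411 genes). Bambi, a receptor look-alike without a kinase domain, did not overlap between strains, at 75.1 ± 14.5 in BN and 117 ± 26.9 in LOU (n = 5, log2 −0.63, limma adjusted p = 0.181). Of the 5 other Smads 4 were lower in BN, with a median of −0.31, and the inhibitory Smad7 gave −0.31 (adjusted p = 0.420). Of 10 measured extracellular antagonists and modulators 6 were higher and 4 lower, with a median of 0.08. Fstl1, a secreted follistatin-like glycoprotein, did not overlap in 1 of its 3 probe sets (1371331_at, log2 −0.45, adjusted p = 0.156), while the others gave −0.19 and −0.43. The 6 measured other receptors and co-receptors had a median of −0.10 and the 3 E proteins one of 0.03, and Tcf3 among the latter was above background on no array.

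Of 8 measured other target genes 6 were lower in BN, with a median of −0.12. Id4, the remaining member of the Id family, chosen here after its values were seen, gave 247.6, 205.4, 57.1, 82.3 and 126.4 on BN arrays and 122.8, 278.7, 276.1, 284.6 and 278.7 on LOU arrays. LOU array 1 lay within the BN range, and the difference was −0.93 (log2, interval −1.86 to 0.01, limma adjusted p = 0.382). Its second probe set (1375183_at) gave −0.57 (adjusted p = 0.326).

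**Figure D4:**
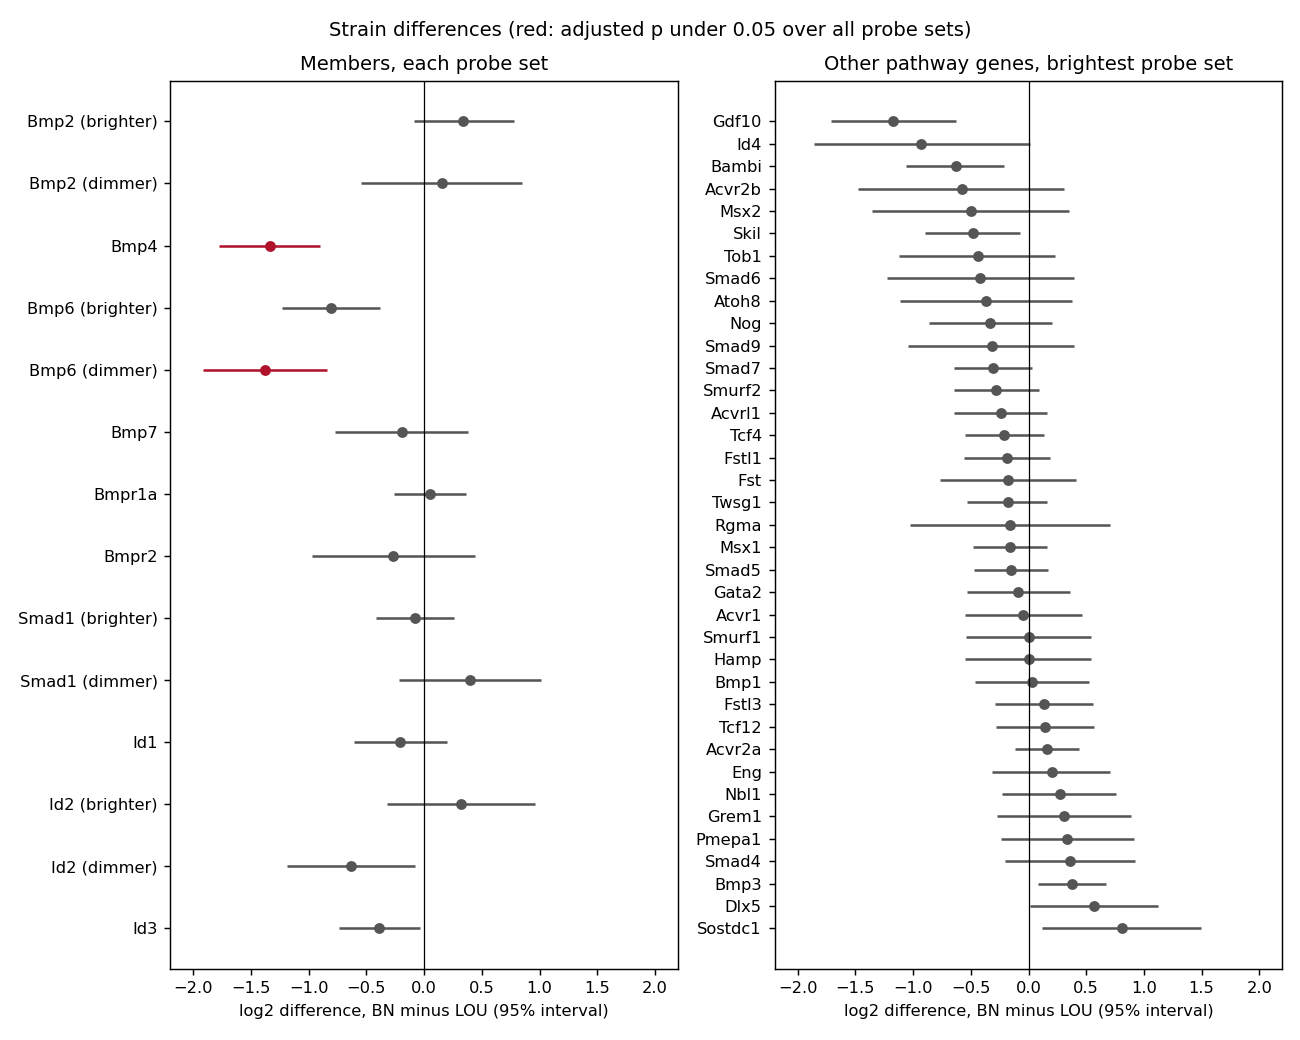
Log2 difference between strains, BN minus LOU, with 95% intervals from limma, for the 14 member probe sets (left) and for the brightest probe set of the 37 other measured pathway genes above background on at least 1 array (right). Red marks an adjusted p under 0.05 over all 15866 probe sets, reached by Bmp4 and the dimmer Bmp6 probe set, while Gdf10 is the lowest of the other genes.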

How the data were processed

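The authors deposited an intensity for each probe set on each array. Per the submitters' processing notes RMA was used (no version is named), but the values run from 0 to 22219.9 and every array has a 2% trimmed mean of 200.05 or 200.06. They were therefore read as linear, with arrays scaled to 1 trimmed mean. Where planned tests spoke of log2 values, log2(signal) was computed here, with the 4 values of 0 set to 0.1. Genes were named from the platform annotation, updated through RefSeq. A signal counted as above background when it exceeded the 95th percentile of that array's 45 bacterial controls.

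Strains were compared by limma's moderated two-sided test (version 3.58.1, R 4.3.3), fitted to all 10 arrays with strain as the only term, over 15866 probe sets, with 57 controls left out and Benjamini-Hochberg adjustment over all of them. The threshold was an adjusted p of 0.05. Relations over arrays used log2 signals with strain means removed and a two-sided exact permutation test within strains, whose smallest p is 6.94e-05. Python 3.11.15 with scipy 1.17.1 and matplotlib 3.10.9 made the other summaries. A marker list's mean is over genes centred across the arrays. The scripts were tested on simulated data.

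All member probe sets are named, other pathway genes where they passed or the strains did not overlap, and the 5 genes most like Bmp4, Id1 and Id3. Outside this rule Id4, Smad7, Smurf1, Bmp15 and Tcf3 are named, chosen after their values were seen. Members, lists and tests were chosen with earlier results of these data known. Replicate numbers did not pair the arrays: deviations of same-numbered arrays correlated between −0.0453 and 0.0147. Alternatives were other scalings, floors, filters, variance models, probe set summaries, covariates and left-out arrays.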

Additional observations from a re-analysis of the deposited data

Results flagged for a closer look

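In a strain of 5 arrays, 1 array stood far from the rest in 4 of 44 groups checked. These were all probe sets of the members and of Gdf10, Bambi, Bmp3, Fstl1 and Id4, in each strain. With normally distributed values, chance alone gives about 1 in 20. The genes other than members were named for their values, and signals were on the linear scale. The count can therefore not be judged against that share. LOU array 4 had a signal of 736.3 in the brighter Id2 probe set, against 356.8 to 456.5 on the other LOU arrays. LOU array 1 had 128.4 in the dimmer Id2 probe set, against 90.8 to 97.4. LOU array 1 also had 122.8 in the brighter Id4 probe set, against 276.1 to 284.6. BN array 5 had 7843.5 in the brightest Fstl1 probe set, against 5161.8 to 5655.1 on the other BN arrays.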

How the results depend on the processing

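Bmp4 kept its direction under all alternatives run and its call under all but 3: the replicate number as a block (adjusted p = 0.17) and both marker means as covariates. The number of member probe sets called was 2 as reported, 3 of 10 without the dimmest 40% of probe sets, 3 with a variance trend, 0 with the replicate block or the fibroblast covariate, 1 of 10 with 1 probe set per gene, 1 with the brown adipocyte covariate, 1 without BN array 3 and LOU array 1 together, and 1 to 2 without single arrays. With the block, the dimmer Bmp6 probe set had an adjusted p of 0.123. No array correlated best with its own number, so the block is not a pairing. Over all probe sets 125 were called, and 23 with the block, 253 without dim probe sets, 242 with a variance trend, 204 with a pseudocount of 16, 77 and 4 with the brown adipocyte and fibroblast covariates, 75 without BN array 3 and LOU array 1, and 63 to 127 without single arrays. Members that did not pass changed sign without single arrays, with ranges of −0.068 to 0.33 for the dimmer Bmp2 probe set, −0.35 to 0.0011 for Bmp7, −0.012 to 0.13 for Bmpr1a, −0.48 to 0.022 for Bmpr2 and −0.18 to 0.0045 for the brighter Smad1 probe set. With the mean of each gene's probe sets Smad1 was 0.16 and Id2 −0.16. Bmpr2 was also 0.008 with signals below 32 set to 32 and 0.27 with the fibroblast covariate.

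Correlations without single arrays ran from −0.11 to 0.26 for Id1 with Bmp4 and from −0.36 to 0.26 for Id3 with Bmp6. Without BN array 3 and LOU array 1, Id1 with Bmp4 was −0.09, Id3 with Bmp4 −0.02 and Id3 with Bmp6 −0.89. Without the 2 arrays farthest in the ligand, Id3 gave −0.02 with Bmp4. For Bmp6 these 2 are BN array 3 and LOU array 1, so the value of −0.89 comes from the same fit. Id3 with Bmp6 was also −0.19 with the mean of each gene's probe sets, −0.36 with the other Bmp6 probe set and −0.02 as a Spearman correlation. The cause of these changes was not tested. No relation passed under any alternative run. Covariates and the joint omission were chosen after seeing the data. Signals near background limit Bmpr2.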
